A study of Mus musculus with 16 samples.

Results

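The genes described here encode a ligand, feedback inhibitors and known targets of the signal that runs from fibroblast growth factors (FGFs) to the kinase ERK. They were followed in mouse embryonic stem cells during the change from the naive state to epiblast-like cells. They were chosen by name and number 10: the ligand Fgf4, the immediate-early transcription factors Egr1 and Fos, the ETS transcription factors Etv4 and Etv5, the feedback inhibitors Spry1, Spry2 and Spry4, and the phosphatases Dusp4 and Dusp6. All 10 were present among the 35975 genes to which the deposited transcripts were summed, and all 10 were among the 18489 genes with enough counts for the test.

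Bulk messenger RNA was sequenced from the mouse embryonic stem cell line ES-E14TG2a (E14) in 2 genotypes, TKO and WT, with 2 libraries for each genotype and day, 16 libraries in all. The labels do not spell out TKO and do not give the number of clones behind it. TKO day 0 and WT day 0 cells grew in serum-free N2B27 medium with 1000 U/ml LIF, 100 µg/ml vitamin C, 3 µM of a Gsk3 inhibitor and 1 µM of a MEK inhibitor, which blocks the kinase just above ERK. For TKO day 2, 4 and 7 and WT day 2, 4 and 7 that medium had been exchanged for one with 12 ng/ml Fgf2 and 20 ng/ml Activin A, so every comparison of day 2 with day 0 also compares cells without and with the MEK inhibitor. The cells were split once more at day 4 with accutase, an enzyme mix that detaches cells. The labels call the libraries biological replicates without saying what was separate, so p-values measure the spread between these libraries.

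FGF ligands bind receptor tyrosine kinases on the cell surface, which pass the signal through Ras, Raf and MEK to ERK. Active ERK turns on immediate-early genes such as Egr1 and Fos and, somewhat later, the ETS factors Etv4 and Etv5 as well as Sprouty proteins and ERK phosphatases, which dampen the same pathway. Mouse embryonic stem cells make their own Fgf4, and its signal through ERK is known to prepare them to leave the naive state.

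The sum of estimated counts was between 33168178 and 47064338 in the 8 TKO libraries and between 39799498 and 58197630 in the 8 WT libraries. The transcript of Dnmt1, the maintenance DNA methyltransferase, lay between 36.2 and 55.9 CPM (counts scaled to a common effective library size) in TKO libraries, and between 310 and 545 CPM in WT libraries. Dnmt3a lay between 2.45 and 187 CPM in TKO libraries and between 27.5 and 974 CPM in WT libraries. The 187 CPM belong to TKO day 4 replicate 1 alone, where replicate 2 had 33.9 CPM, the other TKO libraries 57.3 CPM or less and the WT day 4 libraries 297 and 380 CPM. In that library Dnmt1 had 36.2 CPM, the lowest of the TKO libraries. The same library also stood apart in primitive endoderm markers. The summed level of 6 such markers was 40.7 CPM there and 14.2 CPM in replicate 2, against 12.7 to 13.2 CPM in WT day 4 libraries. Each of the 6 was higher in replicate 1 than in replicate 2. TKO day 4 values thus rest on 2 libraries that also differ in these markers. Dnmt3b lay between 28.9 and 995 CPM in TKO libraries and between 27.3 and 1900 CPM in WT libraries. The summed level of 8 naive markers was 3190 to 3830 CPM in the day 0 libraries and 392 CPM or less in every later one, and Fgf5, a formative epiblast gene, had 0.115 CPM or less on day 0 and 72.2 CPM or more later. The TKO day 4 libraries differed over 2-fold in 168 genes at 5 CPM or more, the most of any group, followed by the WT day 0 libraries with 117 such genes. The TKO day 0 libraries had 6, the fewest of any group. Comparisons on day 0 thus set a very similar pair of libraries against a much less similar one. The small spread of TKO values on day 0 belongs to those 2 libraries only. In bulk RNA, fewer cells with a transcript and less transcript per cell cannot be told apart.

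The RefSeq promoter table on GRCm38.p6 held 7 windows for 6 of the genes: Fos, Spry1, Spry2, Dusp6, Etv5 (which has 2 windows) and Fgf4. No window was used for Egr1, Spry4, Dusp4 and Etv4. The 250 bases before the start are shown for the ligand, for the immediate-early gene Fos, which fell on day 2, and for 2 feedback genes that rose on day 2, 5′ to 3′ on the gene's strand. Capitals mark every CG pair, the site of DNA methylation in mammals.
Fgf4, chr7:144861136-144861385, plus strand: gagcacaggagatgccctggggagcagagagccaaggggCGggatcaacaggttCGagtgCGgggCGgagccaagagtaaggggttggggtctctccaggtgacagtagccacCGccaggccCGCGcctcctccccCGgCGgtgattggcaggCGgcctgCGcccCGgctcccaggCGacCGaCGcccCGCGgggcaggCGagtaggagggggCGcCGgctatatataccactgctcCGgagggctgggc
Fos, chr12:85473640-85473889, plus strand: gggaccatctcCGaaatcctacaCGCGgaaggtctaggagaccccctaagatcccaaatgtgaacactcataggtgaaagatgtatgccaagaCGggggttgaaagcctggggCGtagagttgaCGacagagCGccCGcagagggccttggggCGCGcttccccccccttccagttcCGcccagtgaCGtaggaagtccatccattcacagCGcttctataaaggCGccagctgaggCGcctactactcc
Spry2, chr14:105896820-105897069, minus strand: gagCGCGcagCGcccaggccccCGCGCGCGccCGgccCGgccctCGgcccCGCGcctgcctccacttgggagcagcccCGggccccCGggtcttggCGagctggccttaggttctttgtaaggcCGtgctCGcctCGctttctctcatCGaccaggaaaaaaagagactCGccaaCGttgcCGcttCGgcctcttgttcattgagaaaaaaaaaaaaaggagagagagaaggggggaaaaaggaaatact
Dusp6, chr10:99262981-99263230, plus strand: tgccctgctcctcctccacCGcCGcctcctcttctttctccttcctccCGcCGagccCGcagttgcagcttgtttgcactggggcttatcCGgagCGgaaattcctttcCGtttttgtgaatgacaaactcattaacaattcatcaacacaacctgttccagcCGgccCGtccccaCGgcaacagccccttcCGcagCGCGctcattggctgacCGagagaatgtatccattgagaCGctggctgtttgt
These windows held 21 CG pairs in Fgf4, 15 in Fos, 23 in Spry2 and 16 in Dusp6, while the median over 32817 promoter windows of the same length was 6. The Fgf4 window lies inside the GENCODE span of the gene, whose first annotated base is further upstream. Both strands of the 7 windows were searched for the cyclic AMP response element TGACGTCA, the AP-1 site TGANTCA, the ETS core CCGGAAG, the EGR site GCGTGGGCG, the CArG box and the TATA box TATAAA; CArG box and TATAAA can overlap. The only match was a TATAAA in Fos, from base -33 to base -28 counted from the start. Of all promoter windows, 12.4% held TATAAA, 6.75% the AP-1 site, 6.90% the ETS core, 1.55% the cyclic AMP response element, 1.47% a CArG box and 0.536% the EGR site.

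Between day 0 and day 2, when the MEK inhibitor was removed and Fgf2 was added, the phosphatases Dusp4 and Dusp6 and the inhibitor Spry4 rose most in both genotypes, by 15.1-fold or more, and Fos fell to under 1 CPM. Calls come from edgeR's quasi-likelihood test on all 16 libraries, where a gene was called when its p, adjusted by Benjamini and Hochberg's method across the 18489 genes, lay under 0.05. In TKO, 8 of the 10 genes rose by day 2, where 31.5% of all genes tested were called higher, and 2 fell, where 25.5% were called lower. In WT, 9 of the 10 rose, against 32.9% of all genes, and 1 fell, against 28.6%. The gene that separates these counts is Egr1, which fell in TKO and rose in WT. The median log2 fold change of the 10 genes was 0.74 in TKO and 1.48 in WT, and that of all genes 0.069 in TKO and 0.057 in WT.

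**Figure D1:**
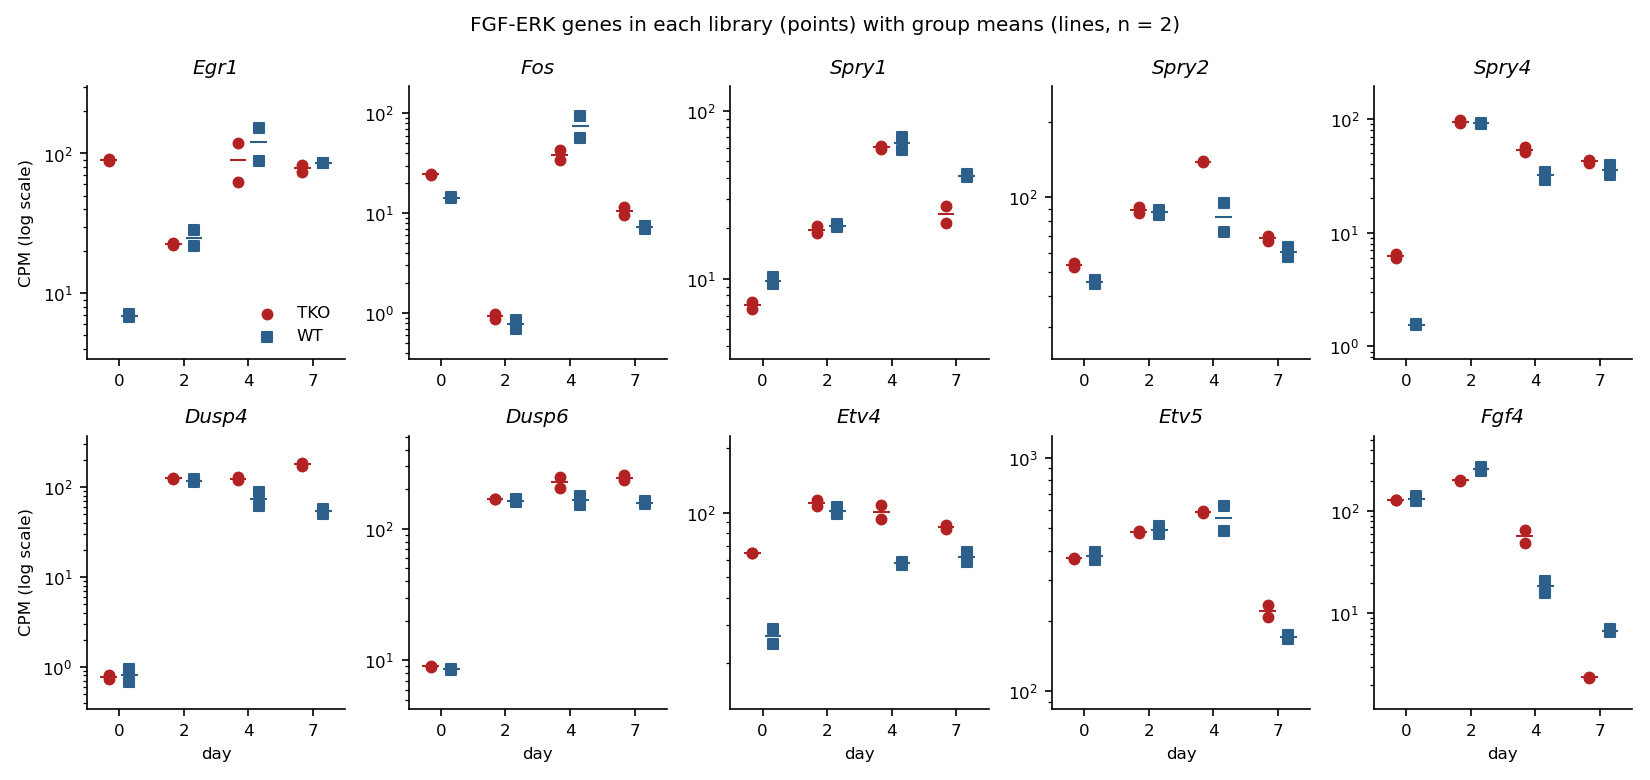
Expression of the 10 genes in each library on days 0, 2, 4 and 7, in CPM on a log scale, with TKO as circles to the left and WT as squares to the right, and short lines for the means of 2 libraries. Egr1 on day 0 stands at 88.7 and 91.4 CPM in TKO and at 7.06 and 6.73 CPM in WT. On day 2 none of the 10 genes was called apart between the genotypes, though both TKO libraries lie below both WT libraries for Fgf4.

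Fgf4 (chromosome 7, bases 144847367 to 144865243 on GRCm38) encodes the FGF that embryonic stem cells secrete. Its transcript was at like levels in both genotypes on day 0, rose by day 2 and fell after that. On day 4 more of it was left in TKO, and on day 7 more was left in WT. In TKO libraries Fgf4 had 130 and 130 CPM on day 0, 200 and 204 on day 2, 48.8 and 65.5 on day 4 and 2.30 and 2.40 on day 7. In WT libraries it had 140 and 126 CPM on day 0, 248 and 275 on day 2, 15.9 and 20.8 on day 4 and 6.52 and 7.02 on day 7. The TKO libraries thus lay above both WT libraries on day 4 and below both on day 7. On day 4 the log2 fold change of TKO over WT was 1.64 ± 0.14 (SE; adjusted p = 2.27e-06), a 3.12-fold difference. On day 7 it was -1.53 ± 0.18 (adjusted p = 1.62e-05), with 2.35 ± 0.0686 CPM in TKO and 6.77 ± 0.353 CPM in WT (SD, n = 2). The change of the genotype difference from day 0 was itself called on both days, at 1.67 ± 0.19 on day 4 (adjusted p = 5.12e-05) and -1.49 ± 0.22 on day 7 (adjusted p = 0.000253). On day 2 both TKO libraries were below both WT libraries, but the log2 fold change of -0.37 ± 0.13 was not called (adjusted p = 0.0745), and over 11 alternative settings the adjusted p ran from 0.0181, in the fit of only the day 2 libraries, to 0.369. Of 8 naive markers, 5 were called higher and 0 lower in TKO on day 4, against 17.8% and 11.1% of all genes tested. Their median log2 fold change was 0.84. Their summed levels overlapped at 320 to 392 CPM in TKO and 311 to 390 CPM in WT. Most of each sum was Nanog, at 307 and 268 CPM in TKO and 286 and 363 CPM in WT, so the overlap says little about the other markers. The part of these naive markers in the Fgf4 value was not tested.

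Egr1 (chromosome 18, bases 34859823 to 34864984) encodes a zinc-finger transcription factor that ERK induces within minutes of a stimulus. It showed the largest genotype difference among the 10 genes, which was called on day 0 alone. In TKO libraries Egr1 had 88.7 and 91.4 CPM on day 0, 23.0 and 22.3 on day 2, 62.7 and 118 on day 4 and 74.2 and 82.7 on day 7. In WT libraries it had 7.06 and 6.73 CPM on day 0, 28.3 and 21.7 on day 2, 152 and 87.8 on day 4 and 85.2 and 85.9 on day 7. On day 0, under the MEK inhibitor, the TKO libraries were thus close to the day 7 libraries of both genotypes, whereas the WT libraries were far below them. From day 2 the genotypes were close or overlapped. The day 0 difference was 13.1-fold (log2 fold change 3.71 ± 0.32, adjusted p = 5.49e-05), and it was called under all 11 alternatives. From day 0 to day 2 Egr1 fell by 1.99 ± 0.29 on the log2 scale in TKO (adjusted p = 0.000114) and rose by 1.86 ± 0.31 in WT (adjusted p = 0.000294). The genotype difference on days 2, 4 and 7 differed from that on day 0 by -3.85 ± 0.43, -4.12 ± 0.42 and -3.83 ± 0.42 (adjusted p = 0.000642, 6.93e-05 and 5.41e-05). On days 2, 4 and 7 TKO and WT were not called apart, at log2 fold changes of -0.14 ± 0.29, -0.41 ± 0.27 and -0.13 ± 0.28. The day 4 value rests on libraries that differ within each genotype: without TKO day 4 replicate 2 the log2 fold change was -0.94 and called (adjusted p = 0.0193; 0.0193 to 0.953 over 11 alternatives).

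Fos (chromosome 12, bases 85473890 to 85477273) encodes a partner of Jun in the transcription factor AP-1. Its transcript had a course of its own, with a trough on day 2 and a peak on day 4 in both genotypes. In TKO libraries Fos had 24.7 and 24.4 CPM on day 0, 0.875 and 0.985 on day 2, 34.2 and 43.0 on day 4 and 9.63 and 11.6 on day 7. In WT libraries it had 14.5 and 14.1 CPM on day 0, 0.690 and 0.856 on day 2, 94.1 and 57.0 on day 4 and 7.48 and 6.94 on day 7. The day 2 values rest on 32 and 42 counts in TKO and on 34 and 33 in WT. From day 0 to day 2 Fos fell by 4.71 ± 0.26 in TKO and by 4.22 ± 0.26 in WT on the log2 scale (adjusted p = 3.34e-09 and 1.19e-08). From day 2 to day 4 it rose by 5.36 ± 0.26 in TKO and by 6.62 ± 0.26 in WT (adjusted p = 1.46e-08 and 1.02e-09). On day 4 Fos was lower in TKO by 0.97 ± 0.18 (log2 fold change -0.97, adjusted p = 0.00152). Fitting only the day 4 libraries ended that call (adjusted p = 0.0519; 4.79e-05 to 0.0519 over 11 alternatives), and without WT day 4 replicate 1 the log2 fold change was -0.57. Fos was higher in TKO on day 0 (log2 fold change 0.78 ± 0.19, adjusted p = 0.0179) and on day 7 (0.56 ± 0.20, adjusted p = 0.0396). Leaving out any 1 of the 4 day 0 libraries ended the day 0 call (adjusted p 0.00244 to 0.0967 over 11 alternatives), and leaving out any 1 of the 4 day 7 libraries ended the day 7 call (0.000881 to 0.268). Keeping all low-count genes and adding an offset for effective length each ended the day 7 call too, so that 6 of the 11 alternatives did not make it.

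The rise of Egr1 and Fos on day 4 fell on the day of the extra split, and the labels do not say whether the cells were harvested before or after it. Both genes rose from day 2 to day 4 in both genotypes, Egr1 by 1.99 ± 0.29 in TKO (adjusted p = 0.000212) and by 2.26 ± 0.29 in WT (adjusted p = 5.20e-05). Other immediate-early genes, named here after their values were seen, moved the same way. Fosb, a relative of Fos, had 11.8 and 30.5 CPM in TKO day 4 libraries and 79.8 and 30.2 in WT day 4 libraries, and 0.182 CPM or less in every day 2 library. Jun had 40.4 and 46.1 CPM in TKO day 4 libraries and 70.6 and 47.0 in WT day 4 libraries, against 6.67 and 7.39 in TKO day 2 libraries and 6.05 and 6.67 in WT day 2 libraries. Of the 28 immediate-early genes listed besides Egr1 and Fos, with Fosb and Jun counted among them, 12 rose and 5 fell in TKO between these days (42.9% and 17.9%, against 24.5% and 20.9% of all genes tested). In WT 13 rose and 7 fell (46.4% and 25.0%, against 26.2% and 28.2%), so the share that fell was near that of all genes in both genotypes. In a list of 12 heat shock and handling genes 0 rose and 11 fell in TKO, against 24.5% and 20.9% of all genes. In WT 1 rose and 9 fell, against 26.2% and 28.2%, so the share that fell was above that of all genes in both genotypes. Their summed levels were 4320 to 4870 CPM in TKO and 5110 to 5350 CPM in WT on day 4, against 8430 to 8680 CPM in TKO and 9450 to 10200 CPM in WT on day 2. The heat shock genes Hspa1a and Hspa1b each had 15.1 CPM or less in every day 2 and day 4 library, so these sums follow mainly other genes of the list. The part of the split in these values was not tested.

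Etv4 (chromosome 11, bases 101769742 to 101785371) and Etv5 (chromosome 16, bases 22381309 to 22439719) encode ETS factors of the PEA3 group, which act downstream of FGF receptors. Etv4 was higher in TKO on day 0 and again on days 4 and 7, while Etv5 reached the highest level of the 10 genes up to day 4 and differed little between genotypes. In TKO libraries Etv4 had 65.2 and 64.9 CPM on day 0, 107 and 114 on day 2, 108 and 93.0 on day 4 and 83.9 and 88.0 on day 7. In WT libraries it had 28.7 and 24.3 CPM on day 0, 98.5 and 106 on day 2, 56.8 and 59.2 on day 4 and 65.3 and 58.8 on day 7. TKO libraries lay above WT libraries on every day, with a narrow gap on day 2. The log2 fold change of TKO over WT was 1.30 ± 0.10 on day 0 (adjusted p = 4.32e-06), 0.79 ± 0.09 on day 4 (adjusted p = 4.54e-05) and 0.47 ± 0.09 on day 7 (adjusted p = 0.00122), and these calls held under all alternatives. On day 2 it was 0.11 ± 0.09 and not called (adjusted p = 0.476). Compared with day 0, the difference was smaller by 1.19 ± 0.13 on day 2 (log2 difference -1.19, adjusted p = 0.000329) and by 0.83 ± 0.14 on day 7 (log2 difference -0.83, adjusted p = 0.000505).

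In TKO libraries Etv5 had 371 and 370 CPM on day 0, 485 and 478 on day 2, 592 and 578 on day 4 and 234 and 209 on day 7. In WT libraries it had 364 and 393 CPM on day 0, 511 and 473 on day 2, 485 and 620 on day 4 and 168 and 174 on day 7. The genotypes overlapped up to day 4, and on day 7 both TKO libraries were above both WT libraries. The day 7 log2 fold change was 0.37 ± 0.10 (adjusted p = 0.00897), a call that ended without TKO day 7 replicate 1, WT day 7 replicate 1 or WT day 7 replicate 2 (adjusted p 4.73e-05 to 0.144 over 11 alternatives). From day 4 to day 7 Etv5 fell by 1.40 ± 0.10 in TKO (adjusted p = 2.20e-07) and by 1.69 ± 0.10 in WT (adjusted p = 6.54e-08) on the log2 scale.

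Beneath the steady total of Etv5 on day 0, its transcripts differed between libraries, which was noticed after the values were seen and was not tested. GENCODE annotates Etv5-203, which starts within the second exon of Etv5-201 and carries an extra coding exon, the fifth of its 13, at chr16:22421819-22421872 on the minus strand of GRCm38. That exon is shown because reads that cover it can come from Etv5-203 and not from Etv5-201, from which Etv5-203 also differs at its 5′ end. It is printed with its 54 bases in capitals and 20 bases of the neighbouring exons on each side in lower case.
Etv5-203 exon 5: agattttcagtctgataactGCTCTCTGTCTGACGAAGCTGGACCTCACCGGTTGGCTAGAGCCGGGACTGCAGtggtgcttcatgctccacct
On day 0, Etv5-203 was estimated at 25.5% and 21.3% of the Etv5 counts in TKO libraries and at 61.7% and 42.7% in WT libraries. The 2 WT day 0 libraries are those that differed over 2-fold in 117 genes. On day 2 it made up 2.3% and 5.0% in TKO libraries and 4.4% and 16.8% in WT libraries, and on days 4 and 7 at most 1.5% in any library. Etv5-201 made up most of the rest, with 74.4% and 78.6% in TKO day 0 libraries and 38.2% and 57.2% in WT day 0 libraries. These shares are kallisto's estimates from reads that both transcripts mostly share.

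**Figure D2:**
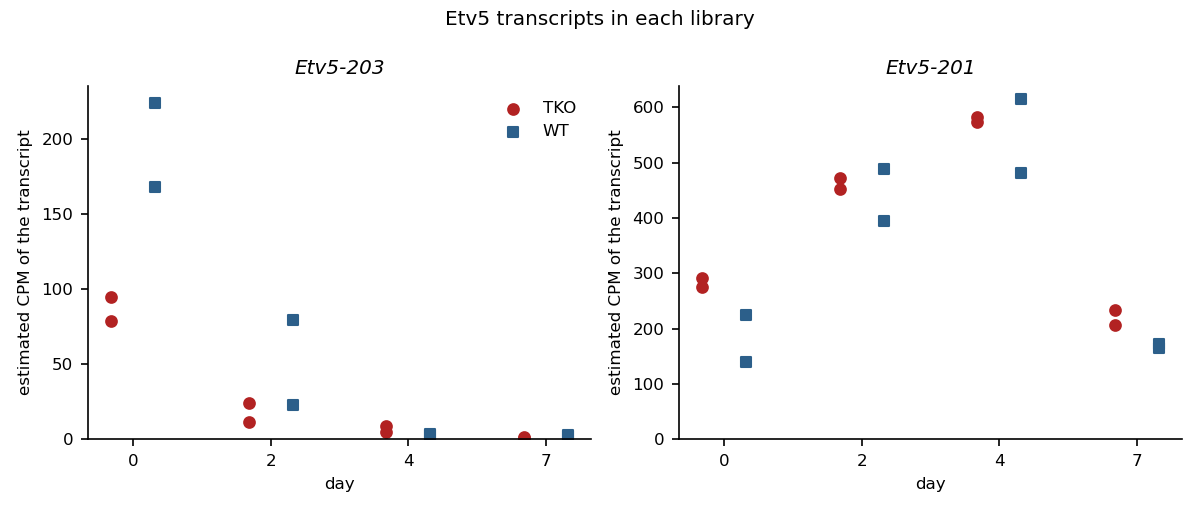
Estimated CPM of the transcripts Etv5-203 (left) and Etv5-201 (right) in each library by day, with TKO as circles and WT as squares. Etv5-203 has 94.5 and 78.8 CPM in TKO and 224 and 168 CPM in WT on day 0, and 8.87 CPM or less in every library of days 4 and 7.

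The Sprouty genes encode membrane-bound inhibitors of receptor tyrosine kinase signalling. The 3 members differed in course: Spry4 rose most by day 2, Spry1 was highest on day 4, and Spry2 rose least by day 2. In TKO libraries Spry4 (chromosome 18, bases 38586247 to 38601415) had 6.49 and 6.00 CPM on day 0, 91.6 and 97.5 on day 2, 56.3 and 51.2 on day 4 and 43.5 and 41.3 on day 7. In WT libraries Spry4 had 1.54 and 1.56 CPM on day 0, 91.0 and 91.8 on day 2, 34.4 and 29.3 on day 4 and 39.3 and 32.4 on day 7. Spry4 was thus 4.03-fold higher in TKO on day 0 (log2 fold change 2.01 ± 0.14, adjusted p = 3.09e-06), not called on day 2 (0.05 ± 0.10, adjusted p = 0.791) and 1.69-fold higher on day 4 (0.75 ± 0.10, adjusted p = 0.000118). By day 2 it rose by 3.92 ± 0.12 in TKO and by 5.88 ± 0.14 in WT on the log2 scale (adjusted p = 1.35e-11 and 2.24e-12), a difference of -1.96 ± 0.18 between the genotypes (adjusted p = 6.31e-05). On day 7 the log2 fold change of 0.24 ± 0.10 was not called (adjusted p = 0.0718; 0.0177 to 0.653 over 11 alternatives).

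In TKO libraries Spry1 (chromosome 3, bases 37639947 to 37644598) had 7.26 and 6.64 CPM on day 0, 18.8 and 20.5 on day 2, 62.1 and 59.3 on day 4 and 27.0 and 21.5 on day 7. In WT libraries Spry1 had 10.2 and 9.34 CPM on day 0, 20.4 and 21.1 on day 2, 58.4 and 70.3 on day 4 and 41.9 and 40.5 on day 7. Spry1 was the one Sprouty gene with a lower call in TKO, on day 7 (log2 fold change -0.77 ± 0.12, adjusted p = 0.000127) and on day 0 (-0.49 ± 0.13, adjusted p = 0.0242). The day 0 call ended in the fit of only the day 0 libraries and without TKO day 0 replicate 1, TKO day 0 replicate 2 or WT day 0 replicate 1 (adjusted p 0.0129 to 0.198 over 11 alternatives). It rose by 1.63 ± 0.12 from day 2 to day 4 in TKO and by the same 1.63 ± 0.12 in WT (adjusted p = 2.38e-07 and 8.76e-08). Spry1 overlaps the annotated gene Gm42922 and Spry4 overlaps Gm27369 and Gm27804, all on the opposite strand. The library kit keeps the strand, but whether the counting used it is not given in the sources used here.

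In TKO libraries Spry2 (chromosome 14, bases 105891947 to 105896819) had 54.3 and 52.3 CPM on day 0, 86.1 and 91.3 on day 2, 140 and 138 on day 4 and 70.2 and 66.7 on day 7. In WT libraries Spry2 had 46.7 and 44.7 CPM on day 0, 85.0 and 88.8 on day 2, 72.6 and 94.5 on day 4 and 63.0 and 57.4 on day 7. Both genotypes reached like levels on day 2, after which Spry2 went on rising in TKO (log2 fold change of day 4 over day 2 of 0.65 ± 0.10, adjusted p = 0.000171) and was not called in WT (-0.06 ± 0.10, adjusted p = 0.669). On day 4 it was 1.67-fold higher in TKO (log2 fold change 0.74 ± 0.10, adjusted p = 0.000141). On days 0 and 7 the log2 fold changes of 0.22 ± 0.10 and 0.19 ± 0.10 were not called, although both TKO libraries lay above both WT libraries on each day. The day 7 difference was called higher in TKO when more low-count genes were removed and when the day 7 libraries were fitted alone (adjusted p 0.00441 to 0.639 over 11 alternatives).

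Dusp4 (chromosome 8, bases 34807297 to 34819894) and Dusp6 (chromosome 10, bases 99263231 to 99267489) encode phosphatases that remove the activating phosphates from ERK, Dusp4 in the nucleus and Dusp6 in the cytoplasm. Both were turned on from low levels by day 2, to like levels in both genotypes, and both ended higher in TKO. In TKO libraries Dusp4 had 0.740 and 0.808 CPM on day 0, 123 and 127 on day 2, 128 and 121 on day 4 and 186 and 171 on day 7. In WT libraries Dusp4 had 0.676 and 0.955 CPM on day 0, 122 and 114 on day 2, 87.8 and 61.4 on day 4 and 57.1 and 50.4 on day 7. Day 0 rested on 26 and 28 counts in TKO and on 25 and 38 in WT. By day 2 Dusp4 rose 161-fold in TKO and 143-fold in WT (log2 fold changes 7.33 ± 0.21 and 7.16 ± 0.20, adjusted p = 8.08e-12 and 7.54e-12). From day 2 the genotypes parted, and on day 7 Dusp4 was 3.32-fold higher in TKO (log2 fold change 1.73 ± 0.14, adjusted p = 3.98e-07), after 1.67-fold on day 4 (0.74 ± 0.13, adjusted p = 0.00108). The day 7 difference exceeded that of day 0 by 1.81 ± 0.34 (adjusted p = 0.00129; 1.41e-06 to 0.0504 over 15 alternatives, the highest without WT day 0 replicate 2).

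In TKO libraries Dusp6 had 9.11 and 8.86 CPM on day 0, 168 and 170 on day 2, 248 and 203 on day 4 and 255 and 236 on day 7. In WT libraries Dusp6 had 8.57 and 8.52 CPM on day 0, 159 and 169 on day 2, 177 and 152 on day 4 and 162 and 154 on day 7. In WT it was not called to change after day 2, while in TKO it rose further by day 4 (log2 fold change 0.41 ± 0.10, adjusted p = 0.00308). TKO was higher than WT by 0.45 ± 0.10 on day 4 (adjusted p = 0.00323) and by 0.64 ± 0.10 on day 7 (adjusted p = 0.000136). The day 4 call ended in the fit of only the day 4 libraries (adjusted p = 0.0595; 0.000128 to 0.0595 over 11 alternatives).

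**Figure D3:**
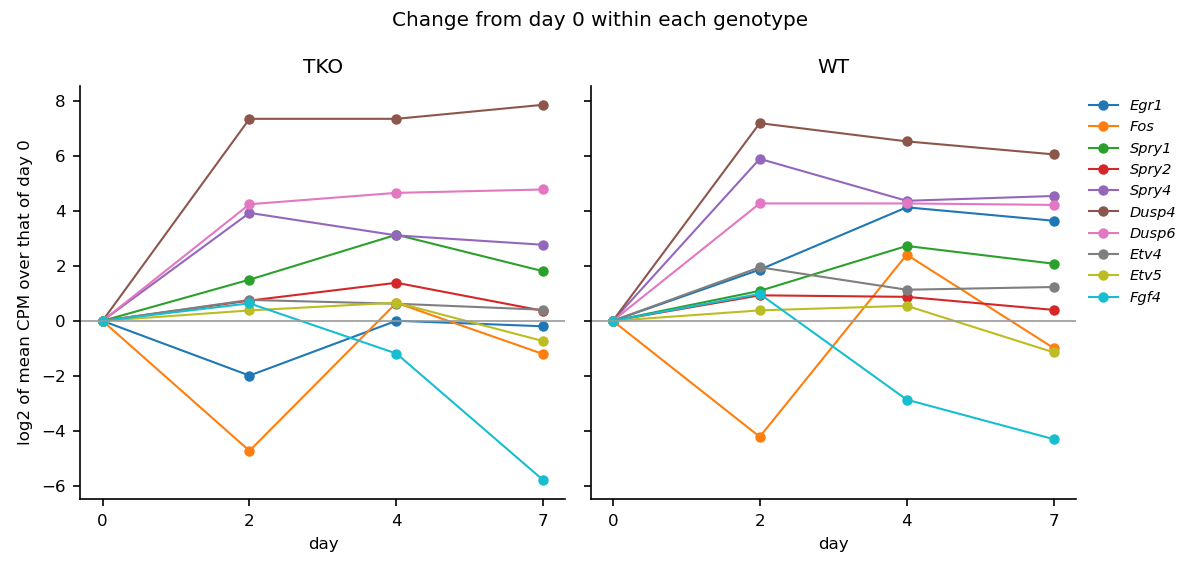
Change of each gene's mean CPM from day 0, as log2 of the ratio, in TKO (left) and WT (right) on days 2, 4 and 7. Dusp4 rises most in both genotypes, Fos dips on day 2, Fgf4 ends lowest, and Egr1 falls on day 2 in TKO where it rises in WT.

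Set against each other on each day, TKO and WT differed in part of the genes on day 0, in none by the call on day 2, and in most on days 4 and 7. On day 0, 4 of the 10 genes were higher in TKO (Egr1, Spry4, Etv4 and Fos), where 4.52% of all genes tested were called higher, and 1 was lower (Spry1), where 8.16% were called lower. On day 2, 0 were called in either direction by edgeR at the adjusted threshold, where 7.91% of all genes were called higher and 5.52% lower. At an unadjusted p under 0.05 1 (Fgf4) of the 10 passed, and DESeq2 called 0. On day 4, 6 genes were higher in TKO (Fgf4, Etv4, Spry4, Spry2, Dusp4 and Dusp6), against 17.8% of all genes, and 1 was lower (Fos), against 11.1%. Without TKO day 4 replicate 1, in which Dnmt3a and primitive endoderm markers stood apart, all 7 kept their direction. The log2 fold changes were then 0.30 for Dusp6, 0.68 for Etv4 and Spry4, 0.69 for Dusp4, 0.72 for Spry2, 1.83 for Fgf4 and -0.82 for Fos. On day 7, 5 were higher (Dusp4, Dusp6, Fos, Etv4 and Etv5), against 23.4% of all genes, and 2 were lower (Fgf4 and Spry1), against 21.1%. As given above, some of these calls ended under alternatives: Fos and Spry1 on day 0, Dusp6 and Fos on day 4, and Fos and Etv5 on day 7. The median log2 fold change of the 10 genes was 0.15, 0.04, 0.60 and 0.30 on days 0, 2, 4 and 7, and that of all genes tested -0.025, -0.012, 0.011 and 0.003.

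**Figure D4:**
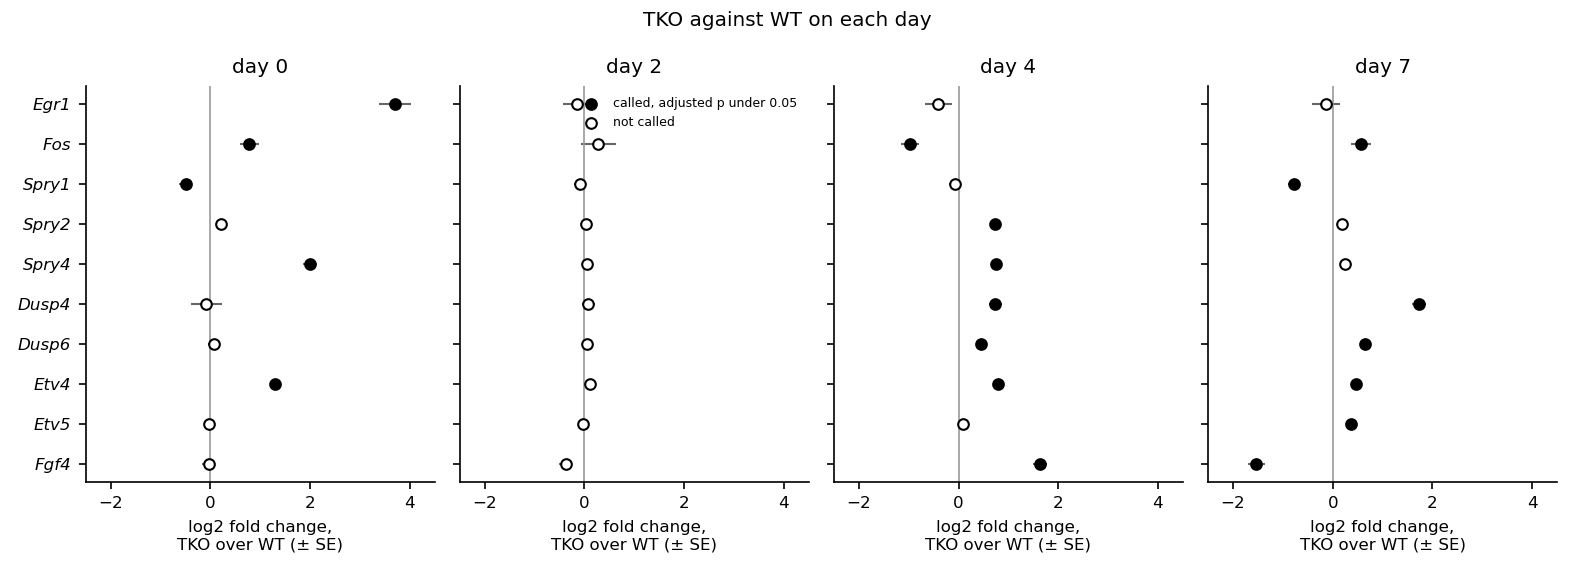
Log2 fold change of TKO over WT for each gene on days 0, 2, 4 and 7, with SE bars from edgeR and filled points for genes called at an adjusted p under 0.05. Egr1 lies at 3.71 on day 0 and near 0 on day 2, and Fgf4 at 1.64 on day 4 and -1.53 on day 7.

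The change of the genotype difference since day 0 was also tested for each gene. Against day 0, the difference on day 2 was lower for 3 of the 10 genes (Egr1, Spry4 and Etv4), where 1.80% of all genes were called lower, and higher for 0, where 5.76% were called higher. On day 4 it was lower for 4 (Egr1, Fos, Spry4 and Etv4), against 4.67%, and higher for 2 (Fgf4 and Spry2), against 11.6%. On day 7 it was lower for 4 (Egr1, Spry4, Etv4 and Fgf4), against 11.3%, and higher for 2 (Dusp4 and Dusp6), against 15.8%. These comparisons share their day 0 libraries. Some calls ended under alternatives. Etv4 on day 4 ended without WT day 4 replicate 2, TKO day 0 replicate 1 or TKO day 4 replicate 2 or with only the libraries compared (adjusted p 0.00478 to 0.0899 over 15 alternatives). Spry2 on day 4 ended in the same restricted fit and without WT day 4 replicate 1 or any TKO library of day 0 or 4 (0.00138 to 0.115), and Dusp6 on day 7 ended without WT day 7 replicate 2, TKO day 7 replicate 1 or either TKO day 0 library (0.00555 to 0.0742). Others were gained by leaving out 1 library: Dusp6 on day 4 without TKO day 4 replicate 2 (0.0262 to 0.37), Dusp4 on day 4 without WT day 4 replicate 1 (0.0114 to 0.515), Spry1 on day 7 without TKO day 7 replicate 1 (0.0476 to 0.546) and Etv5 on day 7 without WT day 0 replicate 1, as well as with DESeq2 and with a stricter filter (0.0248 to 0.279).

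Within TKO, 6 of the 10 genes rose from day 2 to day 4, where 24.5% of all genes were called higher, and 2 fell (Spry4 and Fgf4), where 20.9% were called lower. In WT, 3 rose (Egr1, Fos and Spry1), against 26.2%, and 4 fell (Spry4, Dusp4, Etv4 and Fgf4), against 28.2%. From day 4 to day 7 in TKO, 1 rose (Dusp4), against 21.9%, and 6 fell, against 23.5%. In WT over the same step 0 rose, against 17.7%, and 6 fell, against 19.1%. Fos, Spry1, Spry2, Etv5 and Fgf4 fell in both genotypes in that last step, joined by Spry4 in TKO and by Dusp4 in WT, where Dusp4 changed by 0.52 ± 0.13 in TKO and by -0.47 ± 0.13 in WT (adjusted p = 0.00588 and 0.0134). The rise of Etv5 by day 2 ended in TKO without TKO day 0 replicate 2 (adjusted p 2.58e-07 to 0.0506 over 11 alternatives) and in WT in the fit of only the libraries compared (0.00239 to 0.09). The rise of Etv5 from day 2 to day 4 in TKO ended without any 1 of the 4 libraries (0.00635 to 0.136 over 11 alternatives). The fall of Dusp4 from day 4 to day 7 in WT ended under 3 of 11 (0.000388 to 0.316), among them without WT day 4 replicate 1 and without WT day 7 replicate 2. The change of Dusp4 over that step in TKO ended without TKO day 7 replicate 1 (0.00102 to 0.0593), and the fall of Spry4 in TKO without TKO day 4 replicate 1 or TKO day 7 replicate 2 (0.00649 to 0.094). Calls were gained for Etv4 from day 4 to day 7 in TKO without TKO day 4 replicate 2 (0.0203 to 0.385) and for Egr1 over that step in WT without WT day 4 replicate 2 (0.0329 to 1). They were also gained from day 2 to day 4 in WT for Etv5 without WT day 4 replicate 1 (0.00778 to 0.904) and for Spry2 without WT day 4 replicate 2 (0.033 to 1).

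Markers of cell types also differed on day 7. The primitive streak gene T had 516 and 527 CPM in TKO and 51.6 and 42.9 CPM in WT, and the summed level of 5 mesoderm and streak markers, of which 4 were tested and all 4 were called higher in TKO, was 749 to 775 CPM in TKO and 117 to 144 CPM in WT. Of 5 trophoblast markers 1 was higher and 1 lower in TKO, where 23.4% of all genes tested were called higher and 21.1% lower. Their sum, most of it the keratin gene Krt8, was 150 to 199 CPM in TKO and 457 to 460 CPM in WT. Of these markers only the early mesoderm gene Mesp1 was at 0 in a day 7 library, with 0.201 and 0.275 CPM in TKO and 0.0241 and 0 CPM in WT. Genes of the primitive endoderm list went both ways on day 7. Sox17 had 4.40 and 5.04 CPM in TKO and 40.8 and 29.2 CPM in WT, and Gata4 had 5.78 and 5.87 CPM in TKO and 28.3 and 19.6 CPM in WT. Pdgfra had 23.8 and 26.4 CPM in TKO and 3.69 and 2.48 CPM in WT, and Dab2 had 12.9 and 13.7 CPM in TKO and 4.59 and 4.49 CPM in WT. Of 6 formative and primed epiblast markers, 2 were higher and 1 lower in TKO on day 4, against 17.8% and 11.1% of all genes. On day 7, 1 was higher and 3 lower, against 23.4% and 21.1%. The median log2 fold changes of these 6 markers were -0.06 on day 4 and -0.38 on day 7. Their summed levels were 828 to 1250 and 880 to 899 CPM in TKO, against 1680 to 1960 and 1530 to 1640 CPM in WT. Dnmt3b, which encodes a de novo DNA methyltransferase, accounts for nearly all of that gap. It had 431 and 757 CPM in TKO and 1520 and 1250 CPM in WT on day 4, and 307 and 290 CPM in TKO and 991 and 965 CPM in WT on day 7. The labels do not say whether the genotype alters Dnmt3b itself, so its calls and that gap cannot be read as a difference in cell state. The part of these markers' cells in the day 4 and day 7 values of the 10 genes was not tested.

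Levels were compared between genes as deposited TPM, which is scaled by transcript length. Etv5 was the highest of the 10 genes on day 0, with 139 TPM (138 to 140) in TKO and 130 TPM (114 to 146) in WT, and Dusp4 the lowest, with 0.423 TPM (0.406 to 0.441) in TKO and 0.406 TPM (0.302 to 0.510) in WT. In WT its range overlapped that of Spry4, at 0.424 TPM (0.384 to 0.464). Egr1 took rank 4 in TKO with 42.9 TPM and rank 8 in WT with 2.94 TPM. On day 2 Etv5 led again, at 185 TPM in TKO and 169 TPM in WT, and Fos was lowest at 0.988 TPM in TKO and 0.736 TPM in WT. In TKO the ranges of Dusp6, Etv4 and Fgf4, at 111, 107 and 104 TPM, ran into each other. On day 4 Etv5 and Dusp6 led in both genotypes, at 229 and 156 TPM in TKO and at 207 and 116 TPM in WT, followed by Spry2 in TKO at 108 TPM and by Fos in WT at 75.6 TPM, whose range overlapped that of Spry2. By day 7 Dusp6 led, at 187 TPM (179 to 194) in TKO and 110 TPM (108 to 112) in WT, and Fgf4 was lowest, at 1.39 TPM in TKO and 3.59 TPM in WT. Dusp4 then took rank 2 in TKO with 117 TPM and rank 6 in WT with 31.7 TPM.

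Across the 16 libraries, which share culture days and so are no independent points, the pattern of log2 CPM was most alike for Dusp4 and Dusp6 among the 10 genes (Pearson r = 0.993). Spry4 followed them at 0.93 and 0.92, and Etv4 was at 0.90 with Spry4. Fos had no partner above 0.50, the value with Egr1. Among all protein-coding genes tested, the closest to Dusp6 were Gpm6a (0.997), Calca (0.994) and Dusp4, and the closest to Dusp4 after Dusp6 were Tmem229a and Gpm6a (0.990 each). Spry4 was closest to Cdr2 (0.986), Pop1 (0.980) and Ina (0.979), and Spry1 to Epdr1 (0.985), Plekha5 (0.983) and Hlcs (0.983). Spry2 was close to Serpini1 (0.958) and Glra2 (0.952). Etv4 was closest to Cul1 (0.965), Dcun1d2 (0.942) and Ccdc92 (0.934), and Etv5 to Abcc4 (0.967), Epb41l2 (0.958) and Tubg2 (0.952). Fgf4 was closest to Zfp987 (0.986), to Gab1 (0.980), an adaptor protein of FGF receptors, and to Kat2b (0.979). Fos was closest to Tvp23a (0.962), its relative Fosb (0.954) and Sfxn4 (0.941), and Egr1 to Zfp658 (0.907), Gpr161 (0.883) and Tubgcp3 (0.871). These are descriptions of 8 groups of 2 libraries.

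The rest of the pathway was described by lists of other ligands, receptors, cascade members, feedback genes and targets. Their counts stand beside the share of all 18489 genes tested, of which 4.52% were higher and 8.16% lower in TKO on day 0, 7.91% and 5.52% on day 2, 17.8% and 11.1% on day 4, and 23.4% and 21.1% on day 7. Of 13 other FGF ligands, 1 was higher and 0 lower in TKO on day 0, 0 and 1 on day 2, 6 and 1 on day 4, and 5 and 1 on day 7. The shares higher on days 4 and 7 were 46.2% and 38.5%, and each of the other counts above 0 was a single gene. Fgf10 was higher in TKO on day 0 (14.1 ± 0.996 CPM in TKO, 5.37 ± 0.403 CPM in WT, adjusted p = 0.00689), and Fgf17 was lower in TKO on day 2 (2.38 ± 0.190 CPM in TKO, 4.52 ± 1.20 CPM in WT, adjusted p = 0.0335). On day 4 Fgf3, Fgf1 and Fgf10 were higher in TKO at log2 fold changes of 2.80, 2.21 and 1.94. Their levels were low, at 1.22 ± 0.394, 5.28 ± 2.76 and 1.86 ± 1.03 CPM in TKO and 0.173 ± 0.0503, 1.15 ± 0.209 and 0.493 ± 0.16 CPM in WT. Fgf8 was lower in TKO on day 4 at -1.62. For Fgf8 that fold rests mostly on 1 WT library, with 5.17 and 6.76 CPM in TKO and 8.55 and 28.3 CPM in WT. By day 7 Fgf8, a ligand of the gastrulating embryo, was higher in TKO (70.2 ± 7.30 CPM in TKO, 32.1 ± 4.54 CPM in WT, adjusted p = 0.0351), as were Fgf17 and Fgf1 at log2 fold changes of 1.81 and 2.90. Fgf16 was lower in TKO at -3.01, at low levels of 0.21 ± 0.0534 CPM in TKO and 1.71 ± 0.547 CPM in WT. On days 4 and 7 the list's median log2 fold change was 1.18 and 0.62, and that of all genes 0.011 and 0.003.

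Of 18 FGF receptors, co-receptors and heparan sulfate genes, 2 were higher and 2 lower in TKO on day 0, 4 and 0 on day 2, 7 and 0 on day 4, and 3 and 6 on day 7. Day 4 thus had 38.9% higher and day 7 16.7% higher and 33.3% lower. The list's median log2 fold change was 0.00, 0.09, 0.36 and -0.09 on days 0, 2, 4 and 7. Fgfr1, the main FGF receptor of the epiblast, was higher in TKO on day 0 (131 ± 0.919 CPM in TKO, 104 ± 0.354 CPM in WT, adjusted p = 0.0117) and on day 4 (272 ± 18.8 CPM in TKO, 202 ± 9.84 CPM in WT, adjusted p = 0.000655). Sdc2 and Fgfrl1 were lower in TKO on day 0, at log2 fold changes of -1.10 and -0.32. Fgfrl1, a receptor without a kinase domain, was then higher in TKO on day 2 at 0.76 and on day 4 at 1.04, as was the FGF carrier Fgfbp1 at 0.71 and 0.82. Fgfr3 was higher in TKO on day 2 at 1.84 and lower on day 7 at -1.93. On day 7 the heparan sulfate enzymes Hs2st1, Ndst1 and Ext1 were higher in TKO at 0.59, 0.59 and 0.30. Hs6st1 and Fgfbp3 were lower at -0.81 and -1.96.

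Of 30 genes of the cascade between receptor and ERK, 3 were higher and 2 lower in TKO on day 0, 2 and 0 on day 2, 5 and 6 on day 4, and 6 and 12 on day 7. The shares higher were near those of all genes on days 2, 4 and 7, at 6.67%, 16.7% and 20.0%, while the share lower was above that of all genes on day 4 (20.0%) and on day 7 (12 of 30). The list's median log2 fold change was 0.10, 0.00, 0.04 and -0.12 on the 4 days. The day 0 differences were small: Ptpn11 and Shc1 were higher in TKO at log2 fold changes of 0.28 each. Rras and Frs3 were lower at -0.66 and -0.39. On day 2 the exchange factor Sos2 and the kinase Rps6ka4 were higher at 0.61 and 0.60. On day 4 Ksr1, Gab1 and Mknk1 were higher in TKO at 0.68, 0.56 and 0.42. Rras was lower at -0.77. On day 7 Map2k1, which encodes the kinase MEK1, had 63.7 ± 1.46 CPM in TKO and 108 ± 4.26 CPM in WT (log2 fold change -0.75, adjusted p = 7.60e-06), and Rras was lower at -1.93. Sos2, Ksr1 and Rps6ka5 were higher in TKO on day 7 at 1.50, 1.01 and 0.61.

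Of 24 other feedback inhibitors and phosphatases, 3 were higher and 2 lower in TKO on day 0, 1 and 3 on day 2, 5 and 2 on day 4, and 4 and 7 on day 7. On day 4 these were 20.8% and 8.33% and on day 7 16.7% and 29.2%, not far from the shares of all genes. On days 0 and 2 the counts were 3 or fewer in each direction. The list's median log2 fold change was 0.16, 0.12, -0.05 and -0.13 on the 4 days. On day 0 Cic, a repressor that holds ETS genes such as Etv4 and Etv5 off until ERK inactivates it, had 254 ± 5.14 CPM in TKO and 171 ± 32.9 CPM in WT (log2 fold change 0.57, adjusted p = 0.00986). Pea15a and Flrt3 were higher in TKO on day 0 as well, at 0.94 and 0.63. The phosphatase genes Dusp10 and Dusp5 were lower at -1.28 and -0.95. On day 2 Dusp2 was higher in TKO at 1.18, and Lztr1 and Pea15a were lower at -0.35 and -0.38. Dusp9, another ERK phosphatase gene, had 162 ± 31.9 CPM in TKO and 98.8 ± 31.5 CPM in WT on day 4 (adjusted p = 0.00647), and 81.9 ± 0.316 CPM in TKO and 43.4 ± 1.71 CPM in WT on day 7 (adjusted p = 0.000794). Flrt3 and Dusp2 were higher in TKO on day 4 at 0.87 and 1.10. Dusp1 and Nf1 were lower at -0.57 and -0.67. On day 7 Errfi1 and the FGF receptor antagonist Il17rd were higher in TKO at 0.41 and 0.68. Pea15a, Flrt3 and Dusp16 were lower at -0.79, -0.79 and -0.58.

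Of 28 other immediate-early genes, 5 were higher and 4 lower in TKO on day 0, 1 and 2 on day 2, 6 and 6 on day 4, and 4 and 9 on day 7. On day 0 these were 17.9% and 14.3%, above the shares of all genes in both directions, and on day 7 14.3% and 32.1%. On day 2, at 3.57% and 7.14%, and among the genes higher on day 4, at 21.4%, they were near or below those shares. The share lower on day 4 was also 21.4%, above the 11.1% of all genes. The list's median log2 fold change was -0.02, 0.14, 0.06 and -0.46 on the 4 days. Srf, the factor that binds CArG boxes, had 31.7 ± 0.599 CPM in TKO and 20.1 ± 0.779 CPM in WT on day 0 (log2 fold change 0.65, adjusted p = 0.000688). Myc and Fosl2 were higher in TKO on day 0 at 0.73 and 0.98. Ier5, Zfp36 and Mcl1 were lower at -1.16, -0.78 and -0.32. Arc was higher in TKO on days 2, 4 and 7 at 0.65, 1.40 and 1.23, while Ier5 and Myc were lower on day 2 at -0.85 and -0.38. On day 4 Btg2 and Myc were higher at 0.92 and 0.57. Maff, Atf3 and Klf6 were lower at -0.81, -0.69 and -0.50. On day 7 Btg2 and Nr4a2 were higher at 0.45 and 0.93. Maff, Klf6 and Nr4a1 were lower at -1.74, -1.43 and -0.93.

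Of 23 other ETS factors and reported ERK targets, 22 were tested. In TKO 1 was higher and 0 lower on day 0, 6 and 0 on day 2, 7 and 2 on day 4, and 6 and 7 on day 7. The shares higher on days 2 and 4 were 27.3% and 31.8%, and on day 7 27.3% were higher and 31.8% lower. The list's median log2 fold change was 0.22, 0.11, -0.01 and 0.09 on the 4 days. Ccnd1, which encodes cyclin D1, was higher in TKO on day 0 (260 ± 0.785 CPM in TKO, 203 ± 1.80 CPM in WT, adjusted p = 0.0147) and on day 7 (225 ± 17.3 CPM in TKO, 158 ± 0.979 CPM in WT, adjusted p = 0.000314). On day 2 Sh2b3, Elf4 and Elk3 were higher in TKO at log2 fold changes of 0.84, 1.48 and 0.87. On day 4 Epha2, Phlda1 and Elk3 were higher at 1.51, 2.32 and 1.55. Elk1 and Lin28b were lower at -0.50 and -0.51. On day 7 Sh2b3 and Elf4 were higher at 0.39 and 1.12. Bcl2l11, Spp1 and Lin28b were lower at -1.04, -3.48 and -0.63.

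**Figure D5:**
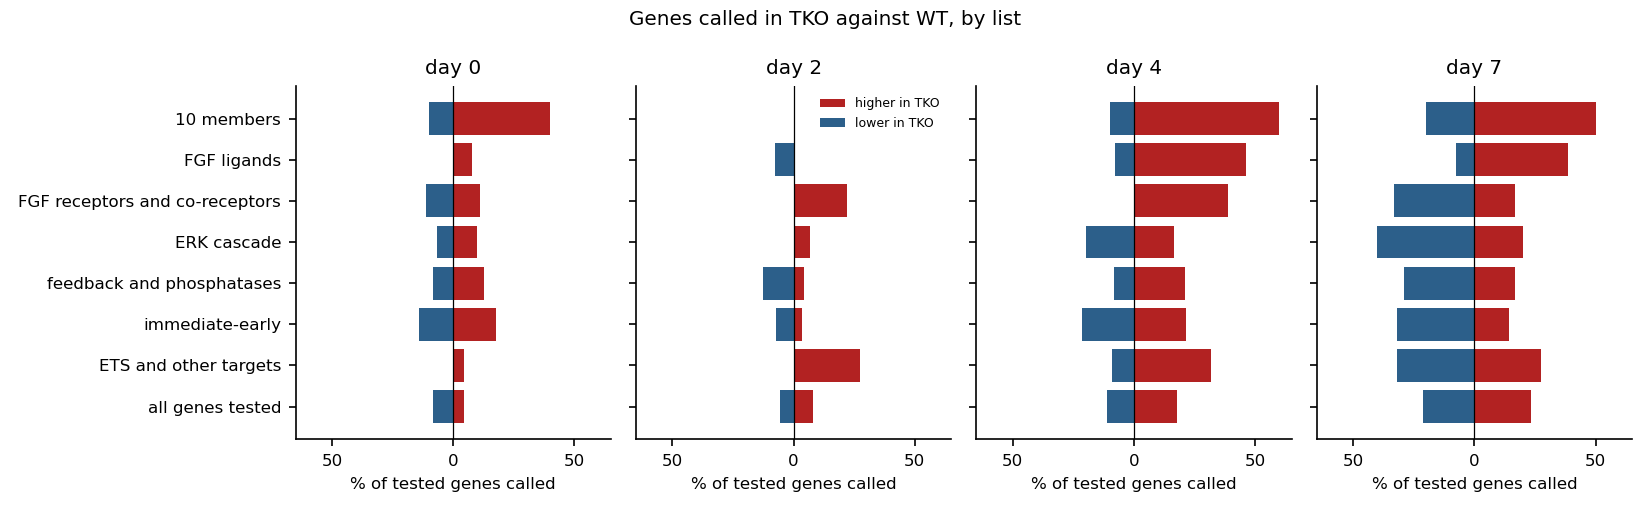
Share of the tested genes of each list that edgeR called higher in TKO (to the right) or lower in TKO (to the left) on days 0, 2, 4 and 7, in percent, with all genes tested as the bottom bar. The 10 FGF-ERK genes have no bar on day 2, where 7.91% of all genes were called higher and 5.52% lower.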

How the data were processed

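Per the submitters' processing notes the authors used kallisto (version not given in the sources used here) with GRCm38 and mm10, and per the file headers each deposited table holds estimated counts, TPM and an effective length (other) per transcript. The authors' deposited expected counts were summed per gene through GENCODE vM21 (116728 of 119414 transcripts matched; unmatched counts were 0.98 to 1.05% in TKO and 0.95 to 1.03% in WT), rounded to whole numbers and fitted in R 4.3.3 by edgeR 4.0.16 with TMM factors, low-count filter by group, robust quasi-likelihood fit of 8 groups over 16 libraries, Benjamini-Hochberg adjustment over 18489 genes. CPM uses effective library sizes, and the authors' deposited TPM was summed per gene. The SE is the log2 fold change divided by the root of F. Named genes were the 10 genes, up to 3 called genes per direction of each wider list and genotype comparison with the lowest adjusted p, if their higher group averaged 1 CPM or more, and the 3 genes most alike each of the 10. A few genes that this rule names are not reported here. Members and lists were chosen with earlier results of these data known. Alternatives were DESeq2 1.42.0, relative log expression factors, other filters, an effective-length offset, only the libraries compared, a replicate block and leaving out each library. The edgeR step was tested on simulated data with the same spread for all genes and groups. The real groups differed in spread, so that simulation cannot speak for comparisons such as that on day 0. Figures used matplotlib 3.10.9. Each library holds at least 33168178 counts.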

Additional observations from a re-analysis of the deposited data

Results flagged for a closer look

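These values were singled out because the TKO against WT difference on a later day differed from that on day 0 in edgeR's test of that change, with all 16 libraries in the fit; the comparisons share their day 0 libraries. For Egr1 the log2 difference changed by -3.85 ± 0.43 (SE) on day 2, by -4.12 ± 0.42 on day 4 and by -3.83 ± 0.42 on day 7 (adjusted p = 0.000642, 6.93e-05 and 5.41e-05). For Spry4 it changed by -1.96 ± 0.18, -1.26 ± 0.18 and -1.77 ± 0.18 on the same days (adjusted p = 6.31e-05, 0.000339 and 8.5e-06), and for Etv4 by -1.19 ± 0.13, -0.51 ± 0.13 and -0.83 ± 0.14 (adjusted p = 0.000329, 0.0206 and 0.000505). The change for Fos on day 4 was -1.75 ± 0.26 (adjusted p = 0.000548), and that for Spry2 on day 4 was 0.52 ± 0.14 (adjusted p = 0.0273). For Fgf4 it was 1.67 ± 0.19 on day 4 and -1.49 ± 0.22 on day 7 (adjusted p = 5.12e-05 and 0.000253). On day 7 the change was 1.81 ± 0.34 for Dusp4 (adjusted p = 0.00129) and 0.56 ± 0.15 for Dusp6 (adjusted p = 0.0125). Groups of 2 libraries were too small for a search for single outlying libraries.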

How the results depend on the processing

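Each group holds 2 libraries. Of 130 values of the 10 genes per setting, the call stayed on its side in the same direction for 128 with DESeq2, 129 with relative log expression factors, 127 with an effective-length offset, 127 without a filter, 125 under a stricter one, and 117 in fits of the compared libraries alone, where 7 calls were lost and 3 gained. Leaving out a library kept 564 of 640, lost 37 and added 10. No called value turned direction; 40 values called in neither fit differed in sign, none larger than 0.31 on the log2 scale. Of 80 levels per length, 4 moved by more than 1 SD when counts were divided by effective length in place of the deposited TPM. The number of genes called on day 2 between TKO and WT was 2482 and became 1602 with the effective-length offset, and the change of the difference by day 2 fell to 867 genes, against 1398. With only the libraries compared, TKO against WT gave 359 genes on day 0 (2343 in the fit of all libraries) and 2821 on day 4 (5342), and the change of the difference by day 4 gave 1547 (3013). Leaving out 1 library moved TKO against WT between 687 and 4294 genes on day 0, 579 and 2008 on day 2, 3837 and 4346 on day 4, and 6212 and 6744 on day 7. The change of the difference ran from 615 to 2166 genes on day 2, from 1850 to 4281 on day 4 and from 3893 to 5717 on day 7. On day 0 the counts were 4294 without WT replicate 2, 700 without TKO replicate 1 and 687 without TKO replicate 2, and on day 2 they were 661 without WT replicate 2, 955 without TKO replicate 1 and 579 without TKO replicate 2. The change by day 2 was 2166 without WT day 0 replicate 1, 906 and 820 without WT day 2 replicate 1 or 2, 615 without either TKO day 0 library, and 735 and 664 without TKO day 2 replicate 1 or 2; that by day 4 was 1850 and 1893 without TKO day 0 replicate 1 or 2. The cause was not tested. No clear pairing by replicate number was seen, as the correlation of the replicates' deviations ran from -0.284 to 0.061 over 28 pairs of groups. These correlations cannot settle whether libraries were handled together, under the same or crossed numbers. With the replicate number as a block, TKO against WT gave 1992, 2098, 4972 and 7880 genes on days 0, 2, 4 and 7, and none of the 130 calls changed. Crossed pairings, added after seeing the data because 2 correlations lay under -0.1, gave 3017 genes for TKO against WT on day 4 and 12022 for day 2 against day 0 in WT, in fits of only the libraries compared. Counting depth limits Dusp4 on day 0, with 25 to 38 counts, and Fos on day 2, with 32 to 42.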
